A study of Mus musculus with 22 samples.

Results

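Most cathepsins are proteinases of the lysosome, and cystatin C is a secreted protein that blocks many of them. RNA levels of the cathepsin genes *Ctsb*, *Ctsc*, *Ctsd*, *Ctse*, *Ctsh*, *Ctsk*, *Ctsl*, *Ctss* and *Ctsz* and of *Cst3*, the gene of cystatin C, were followed in mouse granulation tissue with and without matrix metalloproteinase-13. Each probe set that the array annotation gives to one of these genes alone was taken, which gave 21 of the 45037 probe sets tested and 10 of 18193 genes. *Ctsb* had 5 probe sets, *Ctsc* and *Ctsz* 3 each, *Ctse*, *Ctsh* and *Ctsl* 2 each, and *Ctsd*, *Ctsk*, *Ctss* and *Cst3* 1 each. The probe sets of a gene are numbered by their mean signal, and number 1, the brightest, stands for the gene.

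The tissue had grown into a viscose cellulose sponge implanted under the dorsal skin of mice aged 5 to 8 weeks. Mice that lacked *Mmp13* in the whole body (*Mmp13*-/-) were sampled at 7 d (n = 3), 14 d (n = 4) and 21 d (n = 4), and wild type (WT) mice at 7 d (n = 3), 14 d (n = 4) and 21 d (n = 4). Each of the 22 arrays was of one mouse, as the design text states, and every mouse carried a sponge. The labels give a mixed C57BL/6 x 129 background for both genotypes, and the design text adds that the line had been backcrossed and that the WT mice descended from its heterozygotes. RNA came from the ends of the sponge, so each value is an average over all cells there, in which fewer cells of a type and less RNA per cell cannot be told apart. Hybridization was done in 2 rounds, called series here. The 12 arrays of series 1 were all those of 7 d and replicates 1 to 3 of both genotypes at 14 d, and the 10 of series 2 were all those of 21 d and replicate 4 of both genotypes at 14 d. Series 1 was made from 2000 ng of RNA and series 2 from 250 ng, with different labelling kits. The step between the series was estimated from the 14 d arrays, so each comparison of 21 d with 14 d rests on replicate 4 of each genotype.

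As a check of the labels, the log2 signal of *Mmp13* lay between 7.62 and 8.63 on the *Mmp13*-/- arrays and between 10.26 and 12.02 on the WT arrays. Whether that probe set lies in the deleted part of the gene was not analysed here. Arrays of one group correlated at 0.977 to 0.996 across probe sets, with array medians of 4.16 to 4.27. All 16 macrophage markers looked for had a mean signal above the median probe set (4.22), as had all 12 fibroblast and all 10 endothelial markers. Only 2 of 12 keratinocyte markers, 2 of 7 mast cell markers and 1 of 4 erythroid markers did. All 8 skeletal muscle markers were above it too, and at 7 d their mean level ran from 6.59 to 10.34 on the *Mmp13*-/- arrays and from 5.88 to 10.47 on the WT arrays.

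Most cathepsins are made as inactive precursors, carried to the acidic lysosome by mannose 6-phosphate receptors and cut there into active enzymes. *Ctsd* and *Ctse* encode aspartic proteinases, and the other cathepsins described here are cysteine proteinases. Cathepsin K cleaves triple helical collagen and is the main collagen-degrading enzyme of osteoclasts, cathepsin S trims the invariant chain of MHC class II molecules, and cathepsin C activates the granule serine proteinases of leukocytes. In healing wounds, macrophages and fibroblasts take up collagen and degrade it in lysosomes, a route that runs beside the cleavage of collagen outside the cell by collagenases such as MMP-13.

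RefSeq (GRCm38.p6) promoters were at hand for 7 of the 10 genes. The 250 bases before the start are shown for 3 of them: *Ctsd*, which changed with time in the values that follow, *Ctsl*, which stayed nearly level, and *Ctsk*, whose group means spanned most apart from those of *Ctse*. The *Ctsd* window lies at chr7:142387828-142388077 (minus strand), *Ctsl* at chr13:64370521-64370770 (minus strand) and *Ctsk* at chr3:95498960-95499209 (plus strand). Capitals mark CACGTG, the core of the motif read by TFEB and its relatives, the transcription factors known for switching on lysosomal genes.
Ctsd: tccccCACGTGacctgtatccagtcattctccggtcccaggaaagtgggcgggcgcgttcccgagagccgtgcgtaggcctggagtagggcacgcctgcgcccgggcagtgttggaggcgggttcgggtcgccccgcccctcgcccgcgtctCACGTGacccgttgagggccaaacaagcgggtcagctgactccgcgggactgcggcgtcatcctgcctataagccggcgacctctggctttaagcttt
Ctsl: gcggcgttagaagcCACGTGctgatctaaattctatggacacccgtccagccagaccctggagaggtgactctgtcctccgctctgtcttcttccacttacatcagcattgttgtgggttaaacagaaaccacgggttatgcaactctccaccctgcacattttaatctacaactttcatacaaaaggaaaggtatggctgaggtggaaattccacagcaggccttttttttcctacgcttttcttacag
Ctsk: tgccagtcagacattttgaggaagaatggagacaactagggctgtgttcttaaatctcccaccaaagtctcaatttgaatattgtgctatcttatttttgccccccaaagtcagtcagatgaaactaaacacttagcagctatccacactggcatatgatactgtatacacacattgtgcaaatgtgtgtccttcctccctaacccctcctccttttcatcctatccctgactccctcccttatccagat

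CACGTG, which reads the same on both strands, occurred in 2 of the 7 promoters, with 2 copies in *Ctsd* (beginning 245 and 98 bases before the start) and 1 in *Ctsl* (236 bases before it). The windows of *Ctsc*, *Ctsk*, *Ctss*, *Ctsz* and *Cst3* did not hold these letters. Of 32851 promoter windows of this length, 1978 (6.02%) held CACGTG. The longer TCACGTGA, which contains it, was in the *Ctsd* window at the site nearer the start and in 0.785% of all windows. These matches describe letters only.

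The first question was whether tissue without MMP-13 makes more or less RNA of the cathepsins and cystatin C. *Mmp13*-/- and WT tissue carried nearly the same levels of most of these genes at each day. Leaving out *Ctse*, the widest log2 difference of any gene was 0.14 at 7 d (*Ctsd*, higher in *Mmp13*-/- tissue), 0.38 at 14 d (*Ctsk*, lower) and 0.12 at 21 d (*Ctsh*, lower), and none of these passed the test. In limma's test over all probe sets, with Benjamini-Hochberg adjustment, 0 of the 21 probe sets were called at 7 d, at 14 d, at 21 d or for the average over days, with 1 of 21 at an unadjusted p under 0.05 each time. Of all probe sets, 0.00888% were called at 7 d, 0.0178% at 14 d, 0.0488% at 21 d and 0.0688% for the average, so 0 of 21 does not set the cathepsins apart. At an unadjusted p under 0.05 lay 2.16% of all probe sets at 7 d, 3.98% at 14 d, 11.9% at 21 d and 6.56% for the average. The 10 genes split into 5 higher and 5 lower in *Mmp13*-/- tissue at every day, with medians of -0.00 at 7 d, -0.00 at 14 d and 0.00 at 21 d, beside -0.00, 0.00 and -0.01 over all genes.

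The averages over days are narrow for most of the group. For 8 of the 10 genes the 95% interval of the averaged log2 difference lay within 0.3 of 0, a 1.23-fold difference either way, a limit chosen after the values were seen; 74.6% of all genes met it. *Ctsb* had the interval -0.11 to 0.07 and *Ctsl* -0.09 to 0.12. *Ctss*, *Ctsd* and *Ctsz* lay between -0.09 and 0.16, *Ctsh* had -0.19 to 0.07, *Ctsc* -0.29 to 0.08 and *Cst3* -0.15 to 0.16. The genes outside the limit were *Ctsk* (-0.34 to 0.13) and *Ctse* (-1.03 to 0.89).

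**Figure D1:**
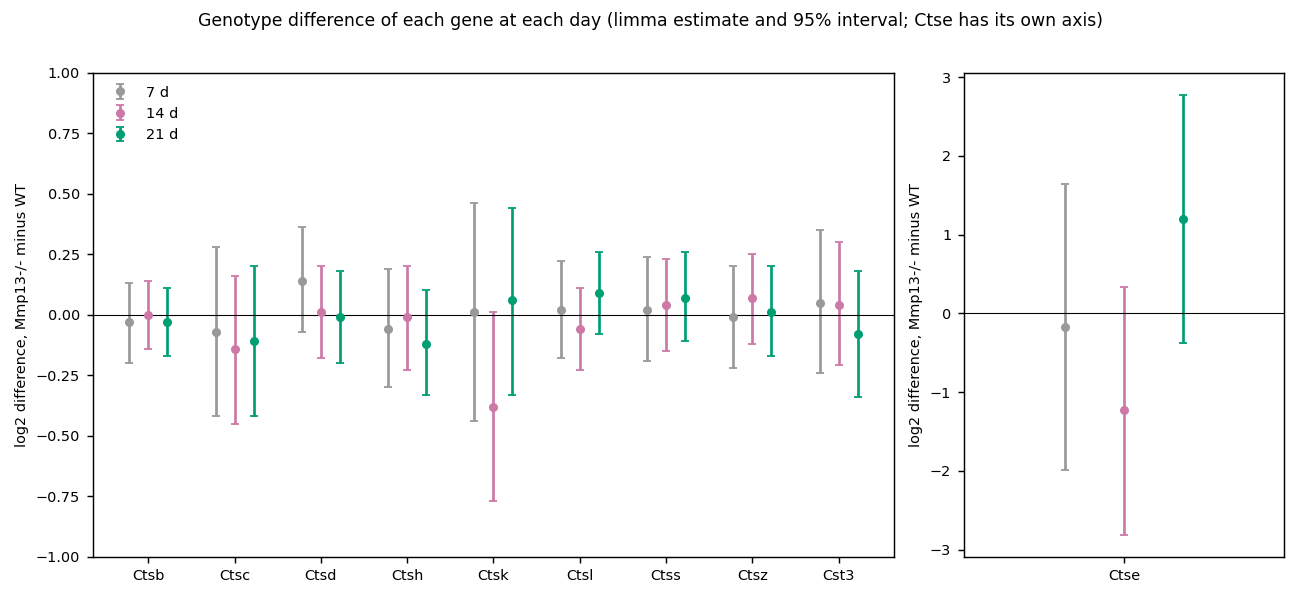
Log2 difference, *Mmp13*-/- minus WT, of the brightest probe set of each gene at 7, 14 and 21 d, with limma's 95% interval; *Ctse* has an axis of its own. All intervals cross 0, and apart from *Ctse* the estimate farthest from 0 is that of *Ctsk* at 14 d, -0.38.

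Of the cysteine proteinases that cut within proteins, *Ctsb*, *Ctsl* and *Ctss* had the steadiest signals with their brightest probe sets. Other probe sets of *Ctsb* and *Ctsl*, described below, varied more. *Ctsl* encodes the enzyme that processes many other lysosomal proteins. Its log2 signal was 13.36, 13.32 and 13.30 in *Mmp13*-/- tissue at 7 d, 13.21, 13.45, 13.42 and 13.28 at 14 d and 13.52, 13.42, 13.44 and 13.60 at 21 d. WT tissue gave 13.35, 13.25 and 13.31 at 7 d, 13.42, 13.41, 13.42 and 13.35 at 14 d and 13.43, 13.57, 13.25 and 13.38 at 21 d. The genotypes overlapped at each day, and the 6 group means spanned 0.19.

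*Ctss*, the cathepsin of antigen-presenting cells, ran from 13.08 to 13.30 on the *Mmp13*-/- arrays and from 12.84 to 13.21 on the WT arrays. *Ctsb*, which encodes an enzyme that can also remove dipeptides, ran from 12.88 to 13.21 in *Mmp13*-/- tissue and from 12.95 to 13.17 in WT tissue with its brightest probe set. The group means spanned 0.13 for *Ctss* and 0.11 for *Ctsb*. The highest value anywhere in the table was 13.77, and whether signals this close to it were compressed was not tested.

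*Ctsk* varied more, with group means that spanned 0.58. Its values were 12.20, 11.69 and 12.15 in *Mmp13*-/- tissue at 7 d, 11.93, 11.70, 12.15 and 11.70 at 14 d and 12.51, 12.81, 11.85 and 12.61 at 21 d. In WT tissue they were 12.12, 11.95 and 11.95 at 7 d, 12.19, 12.49, 11.84 and 12.47 at 14 d and 12.19, 12.42, 12.34 and 12.61 at 21 d. The *Mmp13*-/- mean was lowest at 14 d (11.87 ± 0.22, SD, n = 4), when WT tissue averaged 12.25 ± 0.30 (SD, n = 4), and highest at 21 d (12.45 ± 0.42, against 12.39 ± 0.17 in WT tissue; SD, n = 4 each). At each day the genotypes overlapped.

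The genotype difference of *Ctsk* at 14 d was -0.38 (standard error 0.19, adjusted p = 0.999 from limma; exact two-sided permutation p = 0.114, n = 4 each, where the smallest possible is 0.0286). It was -0.25 among the 3 replicates of series 1 and -0.77 between the 2 arrays of series 2. At 21 d *Ctsk* in *Mmp13*-/- tissue stood 0.55 above 14 d (standard error 0.25, adjusted p = 0.332), and in WT tissue 0.12 above it (standard error 0.25, adjusted p = 0.88). The difference between these steps was 0.43 (95% interval -0.12 to 0.98, adjusted p = 0.821). Both steps rest on the replicate 4 arrays of 14 d: without the *Mmp13*-/- one they were 0.22 in *Mmp13*-/- and -0.08 in WT tissue, and without the WT one 0.75 for *Mmp13*-/- and 0.44 for WT mice.

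At 14 d the mean of the 12 fibroblast markers was also lower in *Mmp13*-/- tissue, at 10.15 to 10.45 on the *Mmp13*-/- arrays and 10.56 to 10.72 on the WT arrays. Of the 12, 10 lay lower, 7 of them at an unadjusted p under 0.05, and 1 was called: *Lum*, a collagen-binding proteoglycan (log2 difference -0.94, standard error 0.15, adjusted p = 0.0274). The mean of 14 giant cell and osteoclast-type genes was 8.25 to 8.35 on the *Mmp13*-/- arrays and 7.96 to 8.47 on the WT arrays, and limma called 0 of 14 (2 at an unadjusted p under 0.05, one higher and one lower). Markers of some other cell types also had negative medians at 14 d. Of 10 endothelial markers all 10 lay lower in *Mmp13*-/- tissue (2 at an unadjusted p under 0.05, median -0.29, list mean 6.91 to 7.28 on the *Mmp13*-/- arrays and 7.13 to 7.96 on the WT arrays). Of 12 keratinocyte markers 11 lay lower (8 at an unadjusted p under 0.05, median -1.01, list mean 3.47 to 3.71 on the *Mmp13*-/- arrays and 3.61 to 5.44 on the WT arrays), and limma called 0 of either list. Other lists had positive medians. Of 16 macrophage markers 12 lay higher and 4 lower in *Mmp13*-/- tissue (1 of the higher ones at an unadjusted p under 0.05, median 0.10). Of 8 dendritic cell markers 6 lay higher and 2 lower (1 each way at an unadjusted p under 0.05, median 0.09). Limma called 0 of these 2 lists as well. The part of any of these lists in the 14 d values of *Ctsk* was not tested.

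Of the enzymes that trim protein ends, *Ctsc* removes dipeptides, *Ctsh* is an aminopeptidase and *Ctsz* a carboxypeptidase. *Ctsh* ran from 10.80 to 11.20 in *Mmp13*-/- tissue and from 10.87 to 11.27 in WT tissue, and *Ctsz* from 12.32 to 12.63 in *Mmp13*-/- and from 12.20 to 12.61 in WT tissue, with genotypes overlapping at each day. *Ctsc* was 11.52, 11.88 and 11.13 in *Mmp13*-/- tissue at 7 d, 11.32, 11.55, 11.40 and 11.28 at 14 d and 11.15, 10.75, 11.32 and 11.14 at 21 d. The WT arrays showed 11.74, 11.56 and 11.44 at 7 d, 11.70, 11.51, 11.73 and 11.18 at 14 d and 11.41, 11.13, 11.27 and 10.99 at 21 d. In both genotypes the mean was lowest at 21 d (11.09 ± 0.24 for *Mmp13*-/- and 11.20 ± 0.18 for WT mice; SD, n = 4 each), but the lone series 2 arrays of 14 d, 11.28 in *Mmp13*-/- and 11.18 in WT tissue, lay within the range of 21 d, and the steps to 21 d that allow for the series were -0.07 in *Mmp13*-/- and -0.10 in WT tissue (standard error 0.19 each).

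Probe sets 2 and 3 of *Ctsc* separated the genotypes at 14 d, as did probe set 3 of *Ctsz*. Probe set 2 read 6.17, 6.45, 6.22 and 5.72 in *Mmp13*-/- tissue, against 6.92, 6.55, 6.77 and 6.51 in WT tissue. Probe set 3 read 4.48, 4.46, 4.41 and 4.48 in *Mmp13*-/- tissue, against 4.80, 4.84, 4.63 and 4.54 in WT tissue. With both, the highest *Mmp13*-/- array was still under the lowest WT array. *Ctsz* probe set 3 went the other way, with 11.29, 11.30, 11.43 and 11.37 in *Mmp13*-/- tissue, against 11.28, 11.25, 11.03 and 11.27 in WT tissue. That makes 3 of 21 probe sets without overlap at 14 d, where 3.52% of all probe sets had none, 1 of 21 at 7 d (7.98% of all) and 0 of 21 at 21 d (2.98% of all). Groups of 4 and 4 without overlap always give an exact two-sided permutation p of 0.0286, the smallest this design allows. For these 3 it therefore adds nothing to the separation by which they were picked. *Ctsc* probe set 3 also lay near the median probe set (4.22). The limma differences were -0.55 (standard error 0.22) and -0.25 (standard error 0.21) for *Ctsc* and 0.14 (standard error 0.14) for *Ctsz*, with adjusted p = 0.999 for all. At 7 d the probe sets of *Ctsc* stood at 0.38 and 0.47 in the other direction (adjusted p = 1 for both), and its brightest probe set did not separate the genotypes at any day.

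*Cst3*, the inhibitor, ran from 11.72 to 12.15 on the *Mmp13*-/- arrays and from 11.57 to 12.32 on the WT arrays. Its mean was 11.88 ± 0.19 at 7 d (SD, n = 3), 12.00 ± 0.10 at 14 d and 12.05 ± 0.11 at 21 d in *Mmp13*-/- tissue (SD, n = 4 each). In WT tissue the mean was 11.83 ± 0.30 at 7 d (SD, n = 3), 11.96 ± 0.13 at 14 d and 12.13 ± 0.18 at 21 d (SD, n = 4 each). No step between days was called in either genotype, and the genotype differences were 0.05, 0.04 and -0.08 (standard errors 0.14, 0.12 and 0.12) at 7, 14 and 21 d.

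**Figure D2:**
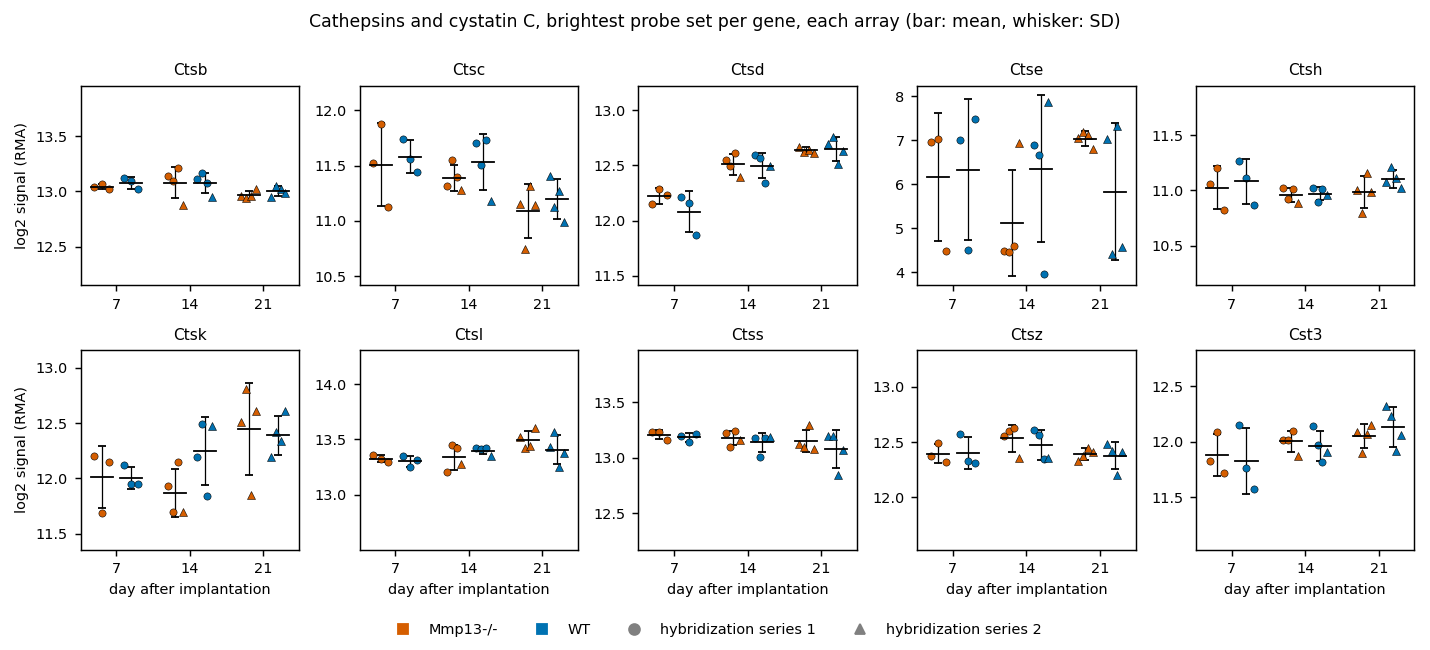
Log2 signal of the brightest probe set of each gene on every array by day, *Mmp13*-/- (orange) left of WT (blue); circles are hybridization series 1 and triangles series 2, bars the group mean and whiskers the SD (n = 3 or 4). All panels but *Ctse* span the same height on the log2 scale: *Ctsb*, *Ctsl* and *Ctss* stay within narrow bands, *Ctsd* is lowest at 7 d, and *Ctse* falls into high and low arrays.

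The second question was how these genes move as the tissue matures. *Ctsd* was the one gene whose brightest probe set was called, and only in WT tissue. *Ctsd* encodes the main aspartic proteinase of the lysosome, which also processes other cathepsins. Its log2 signal in *Mmp13*-/- tissue was 12.15, 12.29 and 12.23 at 7 d, 12.55, 12.49, 12.61 and 12.39 at 14 d and 12.67, 12.62, 12.64 and 12.61 at 21 d. Among WT mice the values were 12.21, 12.16 and 11.87 at 7 d, 12.59, 12.57, 12.34 and 12.49 at 14 d and 12.69, 12.76, 12.51 and 12.63 at 21 d. Every array of 14 d and 21 d lay above every array of 7 d, whatever the genotype.

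From 7 d to 14 d *Ctsd* rose in WT tissue by 0.44 on the log2 scale (1.36-fold, standard error 0.10, adjusted p = 0.0269 from limma). The step in *Mmp13*-/- tissue was 0.31 (1.24-fold, standard error 0.10, adjusted p = 0.283). The steps differed by -0.13, *Mmp13*-/- minus WT (95% interval -0.42 to 0.16, adjusted p = 1), so a difference between the genotypes was not shown. From 14 d to 21 d the steps were 0.19 (standard error 0.12) in *Mmp13*-/- and 0.21 (standard error 0.12) in WT tissue, with adjusted p = 0.507 and 0.44. The WT step stayed positive in every alternative (0.33 to 0.51) but was not called within series 1 alone (0.42, adjusted p = 0.057), with arrays centred on their medians (adjusted p = 0.0522) or with only the arrays compared (adjusted p = 0.207). Leaving out replicate 3 of WT 7 d ended the call as well (0.33, adjusted p = 0.172). So did leaving out replicate 1 or 2 of WT 14 d, with adjusted p = 0.0961 and 0.0936, and replicate 4 of either genotype at 14 d, with adjusted p = 0.0586 each time.

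Beside this, the mean of the 16 macrophage markers was 9.65 to 10.16 at 7 d, 9.92 to 10.15 at 14 d and 9.68 to 10.32 at 21 d in *Mmp13*-/- tissue. WT mice had 9.61 to 10.09 at 7 d, 9.89 to 10.05 at 14 d and 9.77 to 10.06 at 21 d. From 7 d to 14 d, 12 of 16 were higher in *Mmp13*-/- tissue and 11 of 16 in WT tissue, and the one called in both was *Mertk*, a receptor for taking up dead cells (0.68, standard error 0.14, adjusted p = 0.0228 in *Mmp13*-/-; 0.57, standard error 0.14, adjusted p = 0.0379 in WT tissue). Other lists had larger medians over that step in WT tissue than the macrophage list (0.18). Of 10 endothelial markers, 7 were higher at 14 d in *Mmp13*-/- tissue (median 0.08) and 9 in WT tissue (median 1.16), 8 of the WT ones at an unadjusted p under 0.05 and 1 called, *Plvap*, a protein of vessel pores (1.36, standard error 0.31, adjusted p = 0.0281). Of 12 keratinocyte markers, 8 were higher in *Mmp13*-/- tissue (median 0.09) and 11 in WT tissue (median 0.86), 7 of the WT ones at an unadjusted p under 0.05. The 1 keratinocyte marker called was lower at 14 d: *Dmkn* in *Mmp13*-/- tissue (-2.21, standard error 0.43, adjusted p = 0.0185 from limma). In WT tissue 1 marker of this list was lower at an unadjusted p under 0.05. The endothelial list mean ran from 5.59 to 7.31 at 7 d and from 7.13 to 7.96 at 14 d on the WT arrays. Myofibroblast and smooth muscle markers were higher for 7 of 8 in each genotype (median 0.21 in *Mmp13*-/- and 0.50 in WT tissue). Limma called *Tagln* in both (1.88 in *Mmp13*-/-, adjusted p = 0.00502, and 1.83 in WT tissue, adjusted p = 0.00291). *Acta2* was called in WT tissue (1.14, adjusted p = 0.0371). Skeletal muscle markers had medians of 0.35 in *Mmp13*-/- and 0.76 in WT tissue, with 0 of 8 at an unadjusted p under 0.05. The part of these cell types in the *Ctsd* values was not tested.

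Over all members, 1 of 21 probe sets was called for 14 d against 7 d in *Mmp13*-/- tissue, where 0.628% of all probe sets were, and 1 of 21 in WT tissue, where 1.7% were. A single call does not set the 21 apart from that background. At an unadjusted p under 0.05 lay 6 of 21 in *Mmp13*-/- tissue and 3 of 21 in WT tissue, all of them higher at 14 d, where 6.65% and 10.1% of all probe sets did in *Mmp13*-/- and WT tissue. For 21 d against 14 d, 0 of 21 were called in *Mmp13*-/- tissue (5 at an unadjusted p under 0.05; of all probe sets 0.0799% called and 13.7% at an unadjusted p under 0.05) and 0 of 21 in WT tissue (4 at an unadjusted p under 0.05; of all 0.42% called and 14.1% at an unadjusted p under 0.05). Whether the genotype gap itself moved was tested from 7 d to 14 d and from 14 d to 21 d, and limma called 0 of 21 probe sets and 0% of all probe sets both times. At an unadjusted p under 0.05 lay 2 of 21 both times, and of all probe sets 2.29% for the step to 14 d and 6.58% for the step to 21 d. Among the 10 genes, 5 were higher at 14 d than at 7 d in *Mmp13*-/- tissue (median 0.00) and 7 in WT tissue (median 0.08). At 21 d, 7 were higher than at 14 d in each genotype (median 0.10 in *Mmp13*-/- and 0.08 in WT tissue), while the medians over all genes lay between -0.00 and 0.01.

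The probe set called in *Mmp13*-/- tissue was number 3 of *Ctsb*. It read 10.65, 10.53 and 10.41 at 7 d, 11.00, 11.12, 11.29 and 10.82 at 14 d and 11.26, 11.13, 11.15 and 11.43 at 21 d. The WT readings were 10.78, 10.76 and 10.40 at 7 d, 11.00, 11.26, 10.76 and 10.81 at 14 d and 11.20, 11.33, 11.31 and 11.23 at 21 d. All 14 d arrays of *Mmp13*-/- tissue lay above its 7 d arrays, while in WT tissue the lowest 14 d array (10.76) lay below the highest 7 d array (10.78). Here too the series was not allowed for and the share over all probe sets was not counted. The step of this probe set from 7 d to 14 d was 0.59 in *Mmp13*-/- tissue (1.51-fold, standard error 0.13, adjusted p = 0.0338) and 0.37 in WT tissue (standard error 0.13, adjusted p = 0.196). The *Mmp13*-/- step was no longer called without the hybridization term (0.53, adjusted p = 0.097), within series 1 (0.61, adjusted p = 0.0673), with only the arrays compared (adjusted p = 0.0524), or without any one of the *Mmp13*-/- arrays of 7 d or of replicates 1 to 3 of 14 d (0.52 to 0.65, adjusted p = 0.0539 to 0.217).

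The 5 probe sets of *Ctsb* did not move together. Number 4 read 9.82, 9.70 and 9.98 in *Mmp13*-/- tissue at 7 d, 10.52, 10.29, 10.62 and 10.30 at 14 d and 11.04, 11.13, 10.70 and 11.05 at 21 d. On WT arrays the signal was 9.77, 9.70 and 9.46 at 7 d, 10.13, 10.47, 9.91 and 10.57 at 14 d and 10.71, 10.90, 11.06 and 10.84 at 21 d. In both genotypes no 2 days overlapped, with the series not allowed for and the share over all probe sets not counted. Its steps from 7 d to 14 d were 0.57 (standard error 0.16, adjusted p = 0.134) in *Mmp13*-/- and 0.60 (standard error 0.16, adjusted p = 0.0558) in WT tissue, and those from 14 d to 21 d were 0.46 (adjusted p = 0.271) in *Mmp13*-/- and 0.52 (adjusted p = 0.198) in WT tissue, with a standard error of 0.18 each. Without replicate 4 of *Mmp13*-/- at 14 d the steps to 21 d were 0.10 in *Mmp13*-/- and 0.31 in WT tissue, and without replicate 4 of WT at 14 d they were 0.68 in *Mmp13*-/- and 0.88 in WT tissue. Without the hybridization term both were called, at 0.55 in *Mmp13*-/- (adjusted p = 0.0284) and 0.61 in WT tissue (adjusted p = 0.0113).

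The brightest *Ctsb* probe set differed between 14 d and 7 d by 0.09 in *Mmp13*-/- and 0.06 in WT tissue (standard error 0.08 each), and number 5 by -0.05 in *Mmp13*-/- and -0.31 in WT tissue (standard error 0.24 each). Which transcript ends each probe set reads was not analysed here. Number 2 parted the hybridization series: it read 12.64 to 13.10 on every array of series 1 and 11.60 to 12.29 on every array of series 2 (-1.37, standard error 0.11, adjusted p = 6.86e-08). The only other member probe set called for the series was number 2 of *Ctse* (-2.05, standard error 0.24, adjusted p = 7.75e-06), so 2 of 21 were called, where 13.3% of all probe sets were. With the series as a term, number 2 of *Ctsb* stood 0.52 higher at 21 d than at 14 d in each genotype (standard error 0.13 each, adjusted p = 0.106 in *Mmp13*-/- and 0.0755 in WT tissue), whereas without the term both steps were -0.51. Each of these rests on the replicate 4 arrays of 14 d, which read 11.60 in *Mmp13*-/- and 11.69 in WT tissue.

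*Ctse*, the aspartic proteinase best known from stomach and immune cells, had a signal that fell into separate levels. Probe set 1 read 6.96, 7.04 and 4.48 in *Mmp13*-/- tissue at 7 d, 4.48, 4.47, 4.59 and 6.93 at 14 d and 7.06, 7.19, 7.11 and 6.80 at 21 d. WT tissue gave 7.01, 4.50 and 7.49 at 7 d, 6.89, 6.66, 3.97 and 7.88 at 14 d and 7.04, 4.41, 7.32 and 4.57 at 21 d. No array lay between 4.59 and 6.66, a gap of 2.07 on the log2 scale. The upper level held 14 arrays, 7 of each genotype. By group these were 2 of 3 at 7 d, 1 of 4 at 14 d and 4 of 4 at 21 d in *Mmp13*-/- tissue, and 2 of 3, 3 of 4 and 2 of 4 in WT tissue.

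The genotype differences of this probe set were -0.17 at 7 d, -1.23 at 14 d and 1.20 at 21 d, with standard errors of 0.87, 0.75 and 0.75. None was called (adjusted p = 1, 0.999 and 0.554). Probe set 2 of the same gene did not follow it, since it read 5.14 to 6.52 in series 1 and 3.54 to 4.79 in series 2. Within 7 d, all in series 1, it read 5.71, 5.35 and 5.14 in *Mmp13*-/- tissue, against 6.05, 5.96 and 6.52 in WT tissue. All 3 *Mmp13*-/- arrays lay below all 3 WT arrays, a difference of -0.78 (standard error 0.24, adjusted p = 1; exact two-sided permutation p = 0.1, n = 3 each, the smallest this design allows). Averaged over days it was -0.46 (standard error 0.13, unadjusted p = 0.00178, adjusted p = 0.311 from limma), the one member probe set under an unadjusted 0.05 for the average.

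Probe set 2 of *Ctsl* also fell into levels. It read 3.18, 6.58 and 6.90 in *Mmp13*-/- tissue at 7 d, 7.91, 3.74, 7.41 and 6.40 at 14 d and 2.86, 3.25, 3.29 and 3.92 at 21 d. The WT arrays showed 6.76, 6.62 and 3.08 at 7 d, 3.93, 7.03, 2.98 and 6.72 at 14 d and 7.32, 3.57, 7.21 and 7.41 at 21 d. The 12 upper arrays lay at 6.40 or above and the 10 lower ones at 3.93 or below. The upper level held 5 *Mmp13*-/- and 7 WT arrays: 2 of 3 at 7 d, 3 of 4 at 14 d and 0 of 4 at 21 d in *Mmp13*-/- tissue, and 2 of 3, 2 of 4 and 3 of 4 in WT tissue. The genotype difference at 21 d was -3.05 (standard error 1.12, adjusted p = 0.278; exact two-sided permutation p = 0.0571, n = 4 each), whereas *Ctsl* probe set 1 differed by 0.09 (standard error 0.08) at that day.

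A gap of at least 1.5 with 4 or more arrays on either side was found in 71 of 45037 probe sets (0.158%), and 2 of these were the *Ctse* and *Ctsl* probe sets just described. A search of all probe sets, made after these values had been seen, found 3 that parted the 22 arrays exactly as *Ctsl* probe set 2 did and in the same direction. They belong to *Prxl2c*, *Zfp874a* and *Zfp429*, all on the chromosome of *Ctsl*. In the RefSeq annotation no start of a protein-coding gene lies between *Prxl2c* and *Ctsl*, while 41 lie between *Zfp874a* and *Ctsl* and 39 between *Zfp429* and *Ctsl*.

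*Prxl2c* read 7.45 to 8.44 on the 12 arrays that were high for *Ctsl* probe set 2 and 6.58 to 7.12 on the other 10. *Zfp874a* read 3.94 to 5.44 and 2.50 to 3.42, and *Zfp429* 4.04 to 5.25 and 2.63 to 3.87, on the same sets of arrays. A second probe set of *Prxl2c* leaned the other way, at 5.15 to 5.92 on the high arrays and 5.74 to 6.27 on the low ones, with an overlap. No probe set parted the arrays as *Ctse* probe set 1 did. The cause of either split was not tested.

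**Figure D3:**
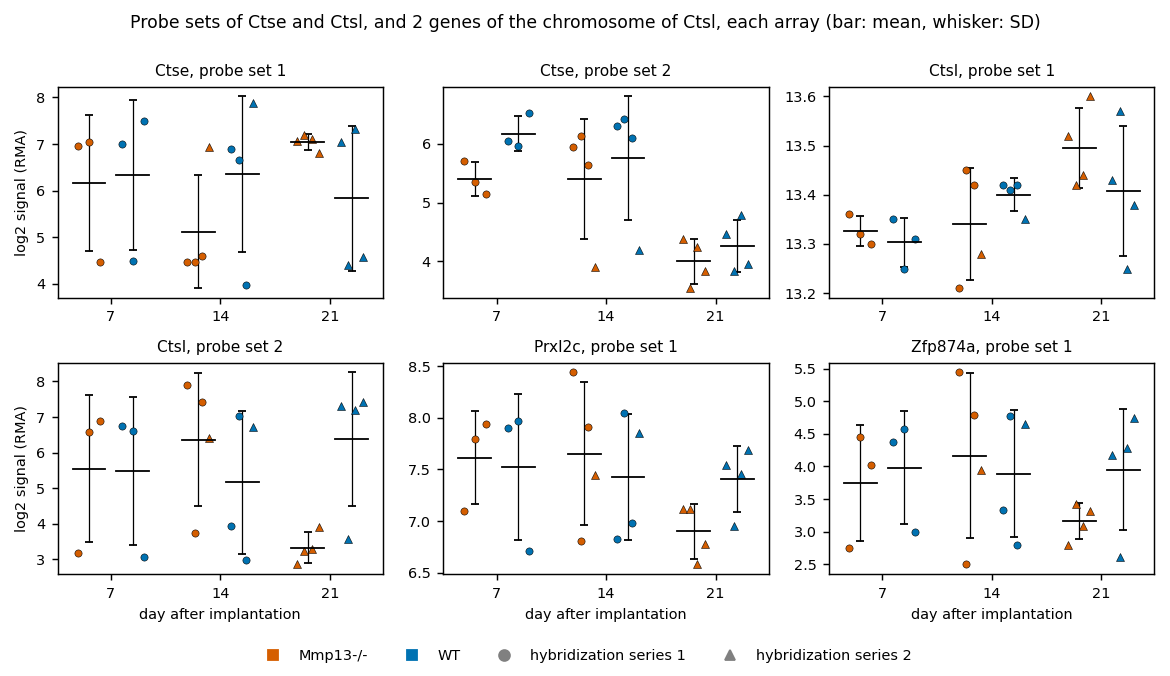
Log2 signal on every array by day of both probe sets of *Ctse* and of *Ctsl*, and of *Prxl2c* and *Zfp874a*, with *Mmp13*-/- (orange) left of WT (blue), circles for hybridization series 1, triangles for series 2, bars for the mean and whiskers for the SD; each panel has its own log2 scale. The arrays that are high for *Ctsl* probe set 2 are high for *Prxl2c* and *Zfp874a* too, while *Ctsl* probe set 1 stays between 13.21 and 13.60.

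The other genes of the lysosome were read from lists of related genes, each by its brightest probe set. From 7 d to 14 d, 27 of 34 lysosomal hydrolases and membrane proteins were higher in *Mmp13*-/- tissue (median 0.09) and 26 of 34 in WT tissue (median 0.15). Called as higher were 2 of 34 in *Mmp13*-/- tissue, where 0.945% of all genes were called either way, and 3 of 34 in WT tissue, where 2.54% were. *Man2b1*, a lysosomal mannosidase, rose by 0.60 in *Mmp13*-/- (adjusted p = 0.0116) and by 0.65 in WT tissue (adjusted p = 0.00355), with a standard error of 0.11 each. *Gusb*, the lysosomal glucuronidase, rose by 0.64 in *Mmp13*-/- (adjusted p = 0.0399) and by 0.61 in WT tissue (adjusted p = 0.03), with a standard error of 0.14 each. *Acp5*, the tartrate-resistant phosphatase of osteoclasts and activated macrophages, rose by 1.02 (standard error 0.21, adjusted p = 0.0114) in WT tissue. None of the 34 was called as lower, while 7 of 34 had a negative log2 difference in *Mmp13*-/- and 8 of 34 in WT tissue, 2 of the WT ones at an unadjusted p under 0.05.

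Among 14 genes listed as other lysosomal peptidases, the one called was *Bace1*, higher at 14 d than at 7 d in WT tissue by 1.02 (standard error 0.18, adjusted p = 0.00377). *Bace1* encodes an aspartic proteinase that cuts membrane proteins, and whether it acts in the lysosome was not examined here. Of 15 sorting receptors and MiT/TFE factors, *Igf2r*, the large mannose 6-phosphate receptor, rose in *Mmp13*-/- tissue (0.49, standard error 0.10, adjusted p = 0.0259) and *Sort1*, a further sorting receptor, in WT tissue (0.98, standard error 0.18, adjusted p = 0.00527). None of 17 subunits of the proton pump that acidifies the lysosome was called by limma in any comparison, with 0 to 2 at an unadjusted p under 0.05 in each. For 21 d against 14 d, limma called 0 genes of these 4 lists in either genotype. Of the 34 hydrolases in *Mmp13*-/- tissue, 18 were higher and 16 lower at 21 d (median 0.04), with 6 of the higher and 2 of the lower ones at an unadjusted p under 0.05, where 13.7% of all probe sets were. In WT tissue 27 were higher and 7 lower (median 0.15), with 11 of the higher and 0 of the lower ones at an unadjusted p under 0.05, where 14.1% of all probe sets were.

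Of 12 receptors and bridging proteins for collagen uptake and binding, 3 were called as higher in WT tissue at 14 d than at 7 d. These were *Mfge8*, a bridge for engulfing dead cells and collagen (1.36, standard error 0.18, adjusted p = 0.000299), *Mrc2*, the collagen uptake receptor of fibroblasts (0.58, standard error 0.11, adjusted p = 0.00783), and *Itga1*, a collagen-binding integrin (0.89, standard error 0.20, adjusted p = 0.026). In *Mmp13*-/- tissue limma called 0 of 12, with 9 of 12 higher (median 0.20) and 4 higher and 1 lower at an unadjusted p under 0.05. The giant cell and osteoclast-type list gave 2 of 14 calls in WT tissue, *Acp5* and the creatine kinase gene *Ckb* (0.88, standard error 0.17, adjusted p = 0.00848), and 0 of 14 in *Mmp13*-/- tissue (6 higher and 1 lower at an unadjusted p under 0.05). Over all 18193 genes, 296 were called as higher at 14 d in WT tissue and 84 in *Mmp13*-/- tissue, so WT tissue had more such calls across the array too. For no gene of these lists was the difference between the genotypes' steps called, and limma called 0 of 45037 probe sets in that test.

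By genotype, limma called 0 genes of these lists at any day or for the average, with 0 to 4 of a list at an unadjusted p under 0.05. None of the 17 other cystatins and cathepsin inhibitors was called in any comparison (1 to 6 at an unadjusted p under 0.05), and 8 of the 17 had a mean signal above the median probe set. MHC class II presentation, in which cathepsin S acts, gave 0 of 10 calls in limma's test and 1 of 10 at an unadjusted p under 0.05, with all 10 genes higher in *Mmp13*-/- tissue for the average over days (median 0.11, against -0.00 over all genes). The mean of those 10 genes ran from 6.95 to 7.77 on the *Mmp13*-/- arrays and from 7.01 to 7.60 on the WT arrays.

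For the 3 members whose group means spanned most, the genes with the most similar course over the 22 arrays were looked up among 11779 genes brighter than the median probe set, by the root mean square difference of the centred log2 values. *Ctsd* (own SD 0.22 over the arrays) was followed most closely by *Lyz2*, the lysozyme of macrophages (0.08), *Esyt1*, a tether between membranes (0.08), and *Ctsa*, the lysosomal carboxypeptidase that protects other enzymes (0.09). For *Ctsk* (own SD 0.32) the nearest were *Abcb4* (0.19), *Nkain1* (0.21) and *Slc8b1* (0.21). *Ctse* had no close match: its nearest, *Ptprv*, *Adamts6* and *Kcnh1*, lay 1.12, 1.14 and 1.15 away, with an SD of its own of 1.31. The arrays of both series enter these distances, so a shared step between the series counts as likeness.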

How the data were processed

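The data are Affymetrix whole-genome mouse arrays. The authors checked the arrays in Expression Console 1.1, normalized them with RMA and analysed them in Chipster 1.4.7; the deposited values are log2 signals per probe set. No source used here gives the version of RMA or says whether the hybridization series went through RMA together. Of 45101 probe sets, 64 controls were left out. Of the rest, 34945 carry a single gene name, 932 carry several and 9160 have no name here.

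All 22 arrays entered 1 model in limma 3.58.1 (R 4.3.3) with a term for each of the 6 groups and one for the hybridization series (15 residual degrees of freedom), moderated by eBayes. Differences are *Mmp13*-/- minus WT or later minus earlier day, called where p, adjusted over 45037 probe sets by Benjamini-Hochberg, was under 0.05. The depth of an array is set by its design, and the number of arrays limits the precision. Exact permutation tests of group means ignore the hybridization series. The script was tested on simulated data.

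Named are all members, at most 3 called genes per list and comparison with the smallest adjusted p (8 pathway and 13 marker lists), the 3 genes most similar to each of the 3 most variable members, *Mmp13*, and the genes that share the split of *Ctsl* probe set 2, chosen after their values were seen. The members and lists were chosen with earlier results of these data known. Promoters came from RefSeq. The alternatives tried were another model, normalization, filter, threshold, prior or probe set, a replicate block, and each array left out.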

Additional observations from a re-analysis of the deposited data

Results flagged for a closer look

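Within groups of 4 arrays, 9 values of member probe sets lay far from the other 3 arrays of their group, among 84 groups looked at. A chance rate of about 1 in 20 groups holds only for 4 like and independent arrays. Replicate 4 of 14 d was hybridized apart from its group, and probe sets of one gene are related, so the 9 cannot be set against that rate. The *Mmp13*-/- 14 d replicate 4 array read 11.60 for *Ctsb* probe set 2, where the others read 13.01 to 13.06. The WT 14 d replicate 4 array read 11.69 for the same probe set, where the others read 12.87 to 13.07. For *Ctse* probe set 1, *Mmp13*-/- 14 d replicate 4 read 6.93 and the others 4.47 to 4.59. *Ctse* probe set 2 read 4.19 on WT 14 d replicate 4 and 6.10 to 6.43 on the others. *Ctsl* probe set 1 read 13.35 on WT 14 d replicate 4 and 13.41 to 13.42 on the others, a gap of a few hundredths on the log2 scale. These 5 values come from replicate 4 of 14 d, the arrays hybridized in series 2 while the rest of their group was in series 1.

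The other 4 values come from arrays hybridized with the rest of their group. *Ctsl* probe set 2 read 3.57 on WT 21 d replicate 2 and 7.21 to 7.41 on the others. *Ctss* read 13.01 on WT 14 d replicate 2 and 13.18 to 13.19 on the others. *Ctsz* probe set 3 read 11.10 on *Mmp13*-/- 21 d replicate 1 and 11.32 to 11.34 on the others, and 11.03 on WT 14 d replicate 3 and 11.25 to 11.28 on the others. No cause was tested for any of these values.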

How the results depend on the processing

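No member probe set was called by genotype under any alternative that kept the adjusted p, including each array left out. For 14 d against 7 d, 1 member probe set was called in each genotype. The counts were 0 in *Mmp13*-/- and 2 in WT tissue without the hybridization term, 0 in both with only the arrays compared and within series 1, and 0 in WT tissue with arrays centred on their medians. In WT tissue they were 2 with only probe sets above the median and 2 with the prior as a trend of signal. For 21 d against 14 d (0 in each genotype), the count without the hybridization term was 1 in *Mmp13*-/- and 2 in WT tissue, and in WT tissue 1 with only brighter probe sets and 1 with the trend. The methods' threshold was p under 0.05 without adjustment and a log2 difference over 0.5 either way. By genotype it gave 1 of 21 at 7 d (0.782% of all probe sets), 1 at 14 d (0.89%), 1 at 21 d (1.94%) and 0 for the average (0.346%). For 14 d against 7 d it gave 3 in *Mmp13*-/- (2.73%) and 1 in WT tissue (4.31%). For 21 d against 14 d it gave 3 in *Mmp13*-/- (5.69%) and 4 in WT tissue (6.39%). For the change of the genotype difference it gave 2 from 7 d to 14 d (1.24%) and 2 from 14 d to 21 d (2.78%). With the adjusted p, leaving out single arrays gave 0 to 1 for 14 d against 7 d in *Mmp13*-/- tissue, 0 to 2 in WT tissue and 0 to 1 for 21 d against 14 d in WT tissue.

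Over all probe sets, the count for 21 d against 14 d was 2523 without the hybridization term and 36 with it in *Mmp13*-/- tissue, and 4657 and 189 in WT tissue. For 14 d against 7 d it was 574 within series 1 and 283 in the full fit in *Mmp13*-/- tissue, and 285 with only the arrays compared and 767 in the full fit in WT tissue. With the replicate block the same number of member probe sets was called in every comparison (*Ctsd* in WT tissue, adjusted p = 0.027; *Ctsb* probe set 3 in *Mmp13*-/- tissue, adjusted p = 0.0391). Same-numbered arrays deviated together in 6 of 11 pairs (correlation over 0.1, range -0.16 to 0.61). Of the 11 arrays, 3 matched their own number best. The highest correlation, 0.61, was that of the replicate 4 arrays of 14 d, which were hybridized apart from the rest of their groups. Pairing of the mice by number was thus not shown, and so few arrays cannot exclude it. The causes of the changes in the counts were not tested.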
